A study of Mus musculus with 9 samples.

Results

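Messenger RNA for 9 genes tied to glaucoma and to the tissues that drain or make aqueous humour was read from bulk RNA sequencing of newborn mouse anterior segments. The genes are Aqp1, Cyp1b1, Mgp, Cav1, Cav2, Nos3, Optn, Angptl7 and Myoc. They were taken by name as the entries of the read count table whose Ensembl identifiers map to these symbols. All 9 were found among 35275 genes and all 9 were among the 15825 genes with enough counts to be tested.

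The mutant samples (n = 6) were heterozygous for Col4a1 G1344D, a glycine to aspartate missense change in a type IV collagen chain of basement membranes, and the wildtype samples (n = 3) were Col4a1+/+. All were taken at P0, the day of birth, and no other treatment or allele is given. Each sample was a pool of 4 eyes from 2 mice with the lens taken out, leaving cornea, iris, ciliary body and drainage tissue together. The p-values below therefore measure the spread between pools, and in such bulk tissue fewer cells of a type and less RNA per cell cannot be told apart. The mutation alters the protein, so no RNA level among these genes checks the genotype labels.

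Aqueous humour is secreted by the ciliary epithelium and leaves the eye through the trabecular meshwork and Schlemm's canal, and resistance to that outflow sets the pressure in the eye. Mutations or common variants at or near the human counterparts of these genes, or experiments on their proteins, tie them to that pressure or to glaucoma. Human COL4A1 mutations cause a disorder of many organs in which malformed anterior segments and glaucoma occur. The comparison asks which of these genes already differ in RNA level in mutant tissue at birth.

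Totals were 28440874 to 35306935 counts per mutant library and 25995340 to 28356439 per wildtype library. Every mutant library was thus deeper than every wildtype library. Values are CPM, read counts scaled to a common library size with TMM factors, and a gene is called where the edgeR quasi-likelihood test gives an adjusted p under 0.05 over all tested genes. Markers of the labelled tissue were present, with high sums for pigment cells (13700 to 15400 CPM in mutant and 15500 to 16200 CPM in wildtype libraries) and corneal epithelium (6560 to 7740 and 6950 to 7910 CPM). They were low for lens (36.3 to 42.8 and 47.6 to 54.3 CPM), photoreceptors (6.56 to 11.5 and 8.47 to 12.3 CPM) and skeletal muscle (3.71 to 8.59 and 3.27 to 6.41 CPM). Means of log2 CPM did not overlap between the groups for 3 of the 12 marker lists. The means for markers of blood endothelium and of erythroid cells were higher in mutants. The mean for markers of keratocytes, the fibroblasts of the corneal stroma, was lower. By sums of CPM the groups were also apart, with mutants lower, for the marker lists of pigment cells, lens, smooth muscle and pericytes, and cartilage. In all of these lists the means of log2 CPM overlapped. Cartilage sums were 106 to 188 CPM in mutants and 197 to 216 CPM in wildtypes. Col9a1, at 132 ± 34.1 CPM in mutants and 197 ± 14.7 CPM in wildtypes, made up most of them. Bfsp2, at 32.5 ± 2.26 CPM in mutants and 42.5 ± 3.47 CPM in wildtypes, made up most of the lens sums. Both genes are named here after their values were seen. Markers of smooth muscle and pericytes moved in both directions, as given below. Libraries also differed in the share of counts on Gm42418, a gene model that overlaps ribosomal RNA, which was above 1% in mutants 1, 3, 4, 5 and 6 and wildtype 1 and below 1% in mutant 2 and wildtypes 2 and 3.

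Of the 9 genes, 1 was called lower in mutants (Aqp1), 1 was called higher (Cyp1b1) and 7 were not called. Over all tested genes 19.2% were called, 9.7% higher and 9.47% lower, so a set of this size with 2 calls lies near that background. That background moved with single libraries: it was 3.33% without wildtype 1, where 1 of the 9 genes was called, and 10.3% without wildtype 3, where 2 were. The groups did not overlap for 1 of the 9 genes, again Aqp1, against 22% of all tested genes. What follows is an account of single genes. Counts of calls in the gene and marker lists below are to be read beside the same shares. No list was tested as a set. A missed call does not show equal levels, so each such gene is given with the 95% interval of its change.

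**Figure D1:**
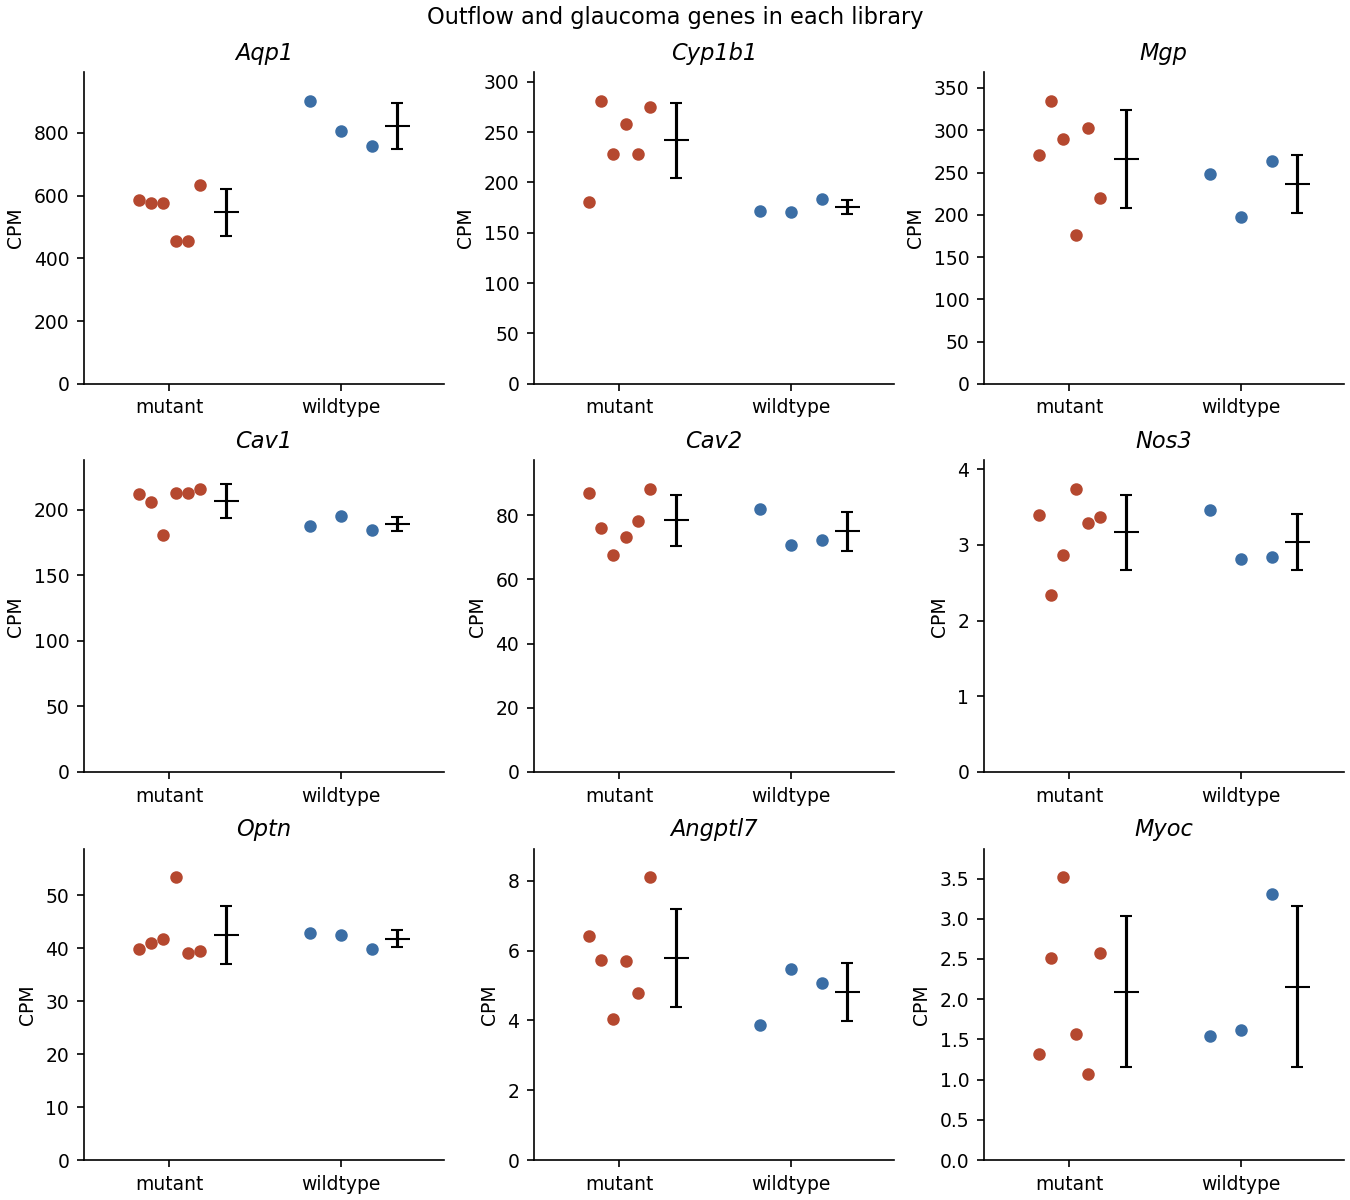
CPM of each of the 9 genes (vertical axes, each from 0) in the 6 mutant libraries (red) and the 3 wildtype libraries (blue), in replicate order within a group, with the mean and SD beside the points. The groups are apart for Aqp1, nearly apart for Cyp1b1 and interleaved for the others.

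Aqp1 encodes aquaporin-1, a water channel of the ciliary epithelium, corneal endothelium, keratocytes, trabecular meshwork and vessel walls. The gene (ENSMUSG00000004655) spans chromosome 6 from 55336432 to 55348555 of GRCm38, plus strand. In mutant libraries 1 to 6 it stood at 586, 575, 576, 456, 454 and 634 CPM, and in wildtype libraries 1 to 3 at 903, 805 and 758 CPM. Every mutant pool was below every wildtype pool, and mutants 4 and 5 were the lowest. The means were 547 ± 74.4 CPM in mutants (SD, n = 6) and 822 ± 74.0 CPM in wildtypes (SD, n = 3). Aqp1 thus fell 1.5-fold (log2 fold change -0.59, SE 0.11, 95% interval -0.82 to -0.36, edgeR adjusted p = 0.00302). It ranked 273 by p among 15825 genes, and it was called whichever of the 9 libraries was left out, with log2 fold changes between -0.64 and -0.51. The log2 difference was -0.75 among libraries above 1% on Gm42418 (5 mutants against 1 wildtype) and -0.44 below it (1 mutant against 2 wildtypes).

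Markers of the cell types in the tissue did not move alike. Of 6 keratocyte markers 4 were called lower and 1 higher, with sums of 4350 to 5670 CPM in mutants and 5890 to 7840 CPM in wildtypes, and without wildtype 1 these counts were 1 and 0. Of 15 blood endothelial markers 10 were called higher and 1 lower (1150 to 1280 CPM in mutants, 893 to 1060 CPM in wildtypes), and without wildtype 1 there were 2 higher and 1 lower. Of 10 erythroid markers 5 were called higher and 1 lower, with sums of 1800 to 8790 CPM in mutants against 536 to 943 CPM in wildtypes. The erythroid counts were 2 and 0 without wildtype 1, 3 and 0 without wildtype 2, and 3 and 1 without wildtype 3. Of 3 corneal endothelial markers 1 was called higher and 0 lower, and of 6 pigment cell markers none was called. Of 10 smooth muscle and pericyte markers 3 were called higher and 5 lower, with sums of 1290 to 1500 CPM in mutants and 1620 to 1730 CPM in wildtypes. There, 3 were lower without wildtype 1 or mutant 3 and 2 without wildtype 2 or wildtype 3, with 3 higher each time.

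Set against the mean of 15 endothelial markers in the same library, on the log2 scale, Aqp1 averaged 3.21 ± 0.22 in mutants (SD, n = 6) and 4.19 ± 0.18 in wildtypes (SD, n = 3). This difference of -0.97 was larger than that of Aqp1 itself, with the groups apart (exact two-sided permutation over 84 splits, p = 0.0119, the smallest they can give; adjusted p = 0.0238 over 4 genes). With wildtype 1 or wildtype 3 left out the difference was -0.87 or -1.01 and the groups stayed apart. The exact permutation p was then 0.0357, the smallest that 28 splits can give, so the adjusted p of 0.143 or 0.0714 is set by the number of samples and the other genes of the family. Relative to other markers, a choice made after the data had been seen, Aqp1 differed by -0.79 against corneal endothelium and by -0.52 against pigment cells (exact permutation p = 0.0119 and adjusted p = 0.0208 over 7 values for both). Against keratocyte markers the difference was -0.23, a smaller gap that did not pass (exact permutation p = 0.0476, adjusted p = 0.0666). All of these ratios, that to the endothelial markers included, reuse the same Aqp1 values and are no separate evidence of its fall. Fitted with the mean of the keratocyte markers as a covariate, also added afterwards, Aqp1 had a log2 fold change of -0.19 (edgeR adjusted p = 0.773), and with the endothelial mean as a covariate -0.25 (edgeR adjusted p = 0.874). Both means separate the genotypes without overlap, so in these fits and in the ratios to these means marker level and genotype cannot be told apart.

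**Figure D2:**
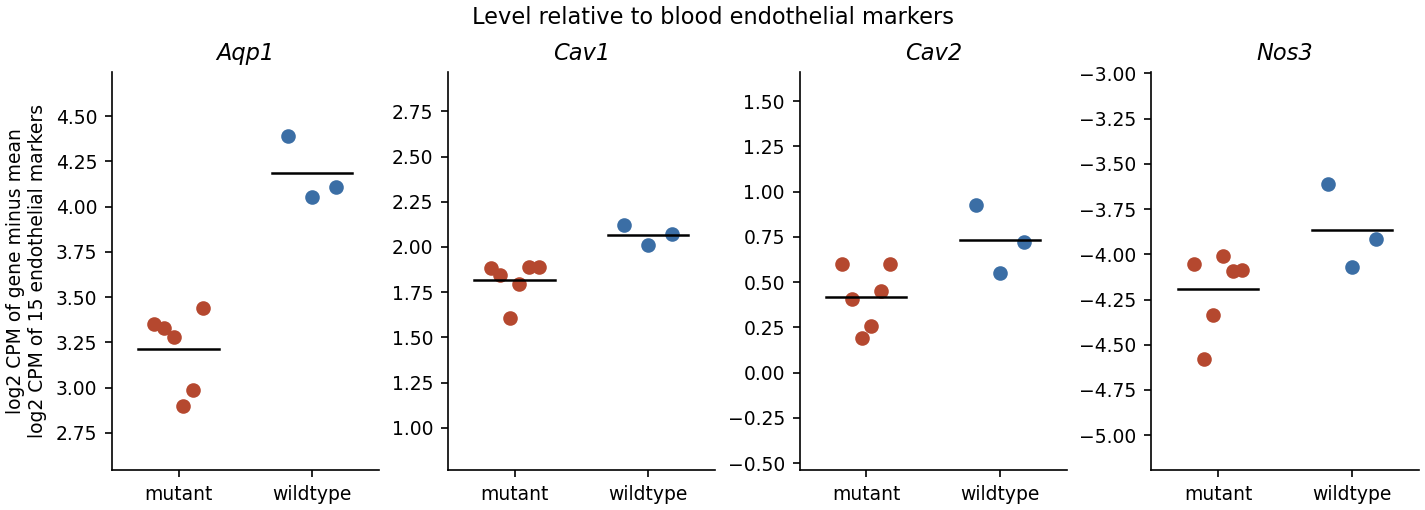
Log2 CPM of Aqp1, Cav1, Cav2 and Nos3 minus the mean log2 CPM of 15 blood endothelial markers in each library (vertical axes, all spanning the same range), mutants in red and wildtypes in blue, with a line at each group mean. Mutant points lie below all wildtype points for Aqp1 and Cav1 and overlap them for Cav2 and Nos3.

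The other aquaporins gave no call. Of 11 listed, 7 were tested, with 0 higher and 0 lower and a median log2 fold change of 0.17, beside -0.0019 over all tested genes. Aqp3, the water and glycerol channel of surface epithelia, was the most abundant of them, at 300 ± 11.4 CPM in mutants and 266 ± 31.9 CPM in wildtypes (edgeR adjusted p = 0.157). It was called higher once a trend of expression on exon length was removed from each library (log2 0.33, edgeR adjusted p = 0.0251). The water channel gene Aqp5 had 2.11 ± 1.40 CPM in mutants and 1.12 ± 0.66 CPM in wildtypes (edgeR adjusted p = 0.295). Mip, the lens aquaporin, had 0.287 ± 0.17 and 0.501 ± 0.10 CPM, and Aqp8 had 1.95 ± 0.45 and 2.40 ± 0.28 CPM, without a call.

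Genes for the ion transport that draws aqueous humour into the eye were called higher or not called. Of 14 tested, 6 were called higher and 0 lower (median log2 fold change 0.20). Slc12a2, the sodium-potassium-chloride cotransporter, rose 1.26-fold to 249 ± 25.1 CPM in mutants, against 198 ± 12.4 CPM in wildtypes (edgeR adjusted p = 0.0182). Slc4a4, a sodium bicarbonate cotransporter, rose 1.32-fold to 183 ± 28 CPM in mutants, against 139 ± 5 CPM in wildtypes (edgeR adjusted p = 0.0212). Both lost their calls without wildtype 1 or wildtype 3, with the length trend removed (edgeR adjusted p = 0.279 and 0.143) and with the Gm42418 share as a covariate (0.0769 and 0.0861). Without wildtype 1 none of the 14 was called, and without wildtype 3 only 1 was, higher.

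Cyp1b1 encodes cytochrome P450 1B1, an enzyme that oxidises steroids, retinoids and foreign compounds, and its loss is a leading cause of primary congenital glaucoma in people. On chromosome 17 it runs from 79701537 to 79715061, minus strand (ENSMUSG00000024087). The mutant libraries 1 to 6 had 181, 281, 229, 258, 228 and 275 CPM and the wildtype libraries 1 to 3 had 171, 171 and 183 CPM. Mutants 2 to 6 were above all wildtypes, while mutant 1 lay just below wildtype 3. Cyp1b1 averaged 242 ± 37.3 CPM in mutants (SD, n = 6) and 175 ± 6.92 CPM in wildtypes (SD, n = 3). It rose 1.38-fold (log2 0.47, SE 0.11, 95% interval 0.23 to 0.71, edgeR adjusted p = 0.0112). The call was kept in 8 of 9 fits that left out a library and was lost without wildtype 1 (log2 0.45, edgeR adjusted p = 0.0778). The log2 difference was 0.44 above and 0.67 below 1% on Gm42418.

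The coefficient of variation of Cyp1b1 was 15.4% between mutant pools and 3.95% between wildtype pools, where counting error alone gives 1.16% and 1.45%. The gene was higher in mutants relative to keratocyte markers by 0.82 and relative to pigment cell markers by 0.53 on the log2 scale (exact permutation p = 0.0119, adjusted p = 0.0208 for both). These ratios reuse the same Cyp1b1 values and are no separate evidence of its rise. The keratocyte mean itself differed by -0.37, mutant minus wildtype, without overlap. Relative to corneal endothelial markers the difference of 0.26 did not pass (exact permutation p = 0.0952, adjusted p = 0.111), nor did that of 0.075 relative to blood endothelial markers (exact permutation p = 0.607), which were themselves higher in mutants. With the keratocyte mean as a covariate its log2 fold change was 0.47, near the value without it, but with an edgeR adjusted p of 0.58, and with the blood endothelial mean it was 0.37 (edgeR adjusted p = 0.817).

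Transcription of Cyp1b1 is driven by the aryl hydrocarbon receptor AHR with its partner ARNT, and the enzyme acts on retinoids. Of 13 tested genes of this receptor pathway and of retinoid metabolism, 2 were called higher and 1 lower (median log2 fold change 0.18). The shares over all tested genes were 9.7% higher and 9.47% lower. Ahr rose 1.34-fold to 82.8 ± 11.7 CPM in mutants, against 61.7 ± 7.65 CPM in wildtypes (edgeR adjusted p = 0.0207). Arnt rose 1.25-fold (edgeR adjusted p = 0.0136), while Cyp26a1, which breaks down retinoic acid, fell 1.51-fold to 23.5 ± 5.21 CPM in mutants, against 35.6 ± 2.14 CPM in wildtypes (edgeR adjusted p = 0.0115). Por, the electron donor of microsomal P450 enzymes, had 120 ± 16.2 CPM in mutants and 97.5 ± 13.4 CPM in wildtypes and did not pass (edgeR adjusted p = 0.07). Without wildtype 1 the counts of higher and lower calls were 0 and 0, without wildtype 2 they were 3 and 2, and without wildtype 3 they were 1 and 1. Arnt lost its call with the length trend removed (edgeR adjusted p = 0.129), and Ahr and Cyp26a1 lost theirs with the Gm42418 share as a covariate (edgeR adjusted p = 0.145 and 0.0502). Cyp1a1, Ahrr, Nqo1 and Tiparp of the receptor pathway, named here after their values were seen, were not called. Their log2 fold changes were 0.65, -0.18, -0.20 and 0.097. Whether AHR had a part in the change of Cyp1b1 was not tested.

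Mgp encodes matrix Gla protein, a vitamin K-dependent inhibitor of calcification that trabecular meshwork cells make in quantity. Its span on chromosome 6 is 136872435 to 136875823, minus strand (ENSMUSG00000030218). The mutant libraries had from 176 through a median of 280 to 335 CPM, and the wildtype libraries had 248, 197 and 264 CPM. All wildtype values lay inside the mutant range. The means were 266 ± 58.1 CPM in mutants (SD, n = 6) and 236 ± 34.7 CPM in wildtypes (SD, n = 3), a log2 fold change of 0.17 with a 95% interval of -0.18 to 0.52 (edgeR adjusted p = 0.509). That interval runs from 0.882 to 1.43 times the wildtype level. Mgp has short exons, 1187 bp in all, and with the length trend removed it was called higher (log2 0.39, edgeR adjusted p = 0.0344). Its log2 difference was -0.0065 above 1% on Gm42418 and 0.55 below it, so the estimates on both sides of that split lay far apart.

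Around Mgp, 4 of 10 tested genes for other Gla proteins, the vitamin K cycle and inhibitors of mineral were called higher and 1 lower (median log2 fold change 0.17). Enpp1, the enzyme that makes the calcification inhibitor pyrophosphate, rose 1.99-fold to 34.2 ± 4.74 CPM in mutants, against 17.2 ± 1.27 CPM in wildtypes (edgeR adjusted p = 0.000263). Ank, a membrane protein needed for pyrophosphate outside cells, rose 1.45-fold (edgeR adjusted p = 0.00213). Spp1, which encodes the secreted phosphoprotein osteopontin, rose 1.64-fold to 606 ± 99.5 CPM, against 370 ± 10.4 CPM in wildtypes (edgeR adjusted p = 0.00186). These 3 were called whichever library was left out, and Pros1, for the Gla protein S of the clotting system, rose 1.19-fold (edgeR adjusted p = 0.0225) and lost its call without wildtype 1 or wildtype 3 or with the Gm42418 covariate (edgeR adjusted p = 0.0771). The lower call was Ucma, another Gla protein, named here after its values were seen; it was lost without wildtype 1, wildtype 3, mutant 3 or mutant 6 and with the length trend removed.

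Cav1 and Cav2 encode caveolin-1 and caveolin-2, which build the flask-shaped membrane pits called caveolae, and variants near the human genes are associated with eye pressure and open-angle glaucoma. Both lie on the plus strand of chromosome 6, Cav2 from 17281185 to 17289115 (ENSMUSG00000000058) and Cav1 from 17306335 to 17341452 (ENSMUSG00000007655). The gap of 17219 bp between them holds 0 protein-coding genes in the annotation.

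The mutant libraries had from 181 through a median of 212 to 216 CPM of Cav1, and the wildtype libraries had 188, 195 and 184 CPM. The mutant pools other than mutant 3 were above all wildtype pools, and mutant 3 was below them. The means were 207 ± 13.0 CPM in mutants (SD, n = 6) and 189 ± 5.47 CPM in wildtypes (SD, n = 3), with a log2 fold change of 0.13 (95% interval -0.028 to 0.28, edgeR adjusted p = 0.237). Cav2 ranged from 67.7 through a median of 77.1 to 88.3 CPM in mutants and stood at 82.0, 70.8 and 72.2 CPM in wildtypes. Its groups were interleaved, with means of 78.4 ± 8 and 75.03 ± 6.11 CPM and a log2 fold change of 0.063 (95% interval -0.14 to 0.26, edgeR adjusted p = 0.681). The intervals reach 1.22 times the wildtype level for Cav1 and 1.2 times for Cav2 at their upper ends. No omission of a library gave either gene a call.

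The ratio of both caveolins differed little between groups: log2 Cav1 minus Cav2 was 1.40 ± 0.098 in mutants (SD, n = 6) and 1.34 ± 0.13 in wildtypes (SD, n = 3; exact two-sided permutation p = 0.393). Over the 9 libraries, after subtracting each genotype's mean, log2 CPM of Cav1 and Cav2 had a Pearson correlation of 0.615, which describes libraries that share depth and tissue make-up. Among the 36 pairs of the 9 genes this measure ran from -0.715 (Optn and Mgp) to 0.701 (Angptl7 and Cav1).

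Caveolins are abundant in endothelium, and endothelial markers were higher in mutants as given above. Relative to 15 of those markers, Cav1 averaged 1.82 ± 0.11 in mutants (SD, n = 6) and 2.07 ± 0.055 in wildtypes (SD, n = 3) on the log2 scale, a difference of -0.25 with the groups apart (exact permutation p = 0.0119, adjusted p = 0.0238). Cav2 differed by -0.32 in the same measure (exact permutation p = 0.0595, adjusted p = 0.0794). Without wildtype 1 the Cav1 difference was -0.22 (exact permutation p = 0.0714, adjusted p = 0.143) and without wildtype 3 it was -0.25 (exact permutation p = 0.0357, adjusted p = 0.0714), with the groups apart in both cases. The smallest p that 28 splits can give is 0.0357, which limits what these tests can show. The Cav2 difference passed without wildtype 2 (-0.41, exact permutation, adjusted p = 0.0476). The mean of the endothelial markers was itself 0.38 higher in mutants on the log2 scale, without overlap. Cav1 in the whole tissue was 0.13 higher and not called. The lower ratio thus goes with the higher markers, and the permutation cannot separate a change of Cav1 from theirs. Other cells of the tissue also carry caveolins, and their part in this ratio was not tested.

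Of 9 further genes for the caveola coat and neck, 2 were called higher and 2 lower (median log2 fold change 0.062). Ehd2, the ATPase that holds caveolae at the membrane, rose 1.24-fold to 246 ± 14.5 CPM in mutants, against 198 ± 22.7 CPM in wildtypes (edgeR adjusted p = 0.0182), and its relative Ehd4 rose 1.23-fold (edgeR adjusted p = 0.0286). Cavin3, a coat protein, fell 1.21-fold (edgeR adjusted p = 0.0464). Cav3, the caveolin of muscle, fell 2.14-fold to 2.12 ± 0.41 CPM in mutants, against 4.54 ± 1.86 CPM in wildtypes (edgeR adjusted p = 0.0111). Without wildtype 1 none of the 4 was called, and without wildtype 3 only 1 was, higher. The counts of higher and lower calls were 1 and 2 without wildtype 2, 2 and 1 without mutant 3, and 1 and 1 without mutant 5 or mutant 6. Cavin3 lost its call with the length trend removed (edgeR adjusted p = 0.397), and Ehd2, Ehd4 and Cavin3 lost theirs with the Gm42418 covariate (0.0572, 0.0742 and 0.182). Smooth muscle and pericyte markers moved in both directions as given above, and their part in these calls was not tested.

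Nos3 encodes endothelial nitric oxide synthase, whose product relaxes vessels and outflow tissue and whose activity caveolin-1 restrains. It lies on chromosome 5 from 24364810 to 24384474, plus strand (ENSMUSG00000028978). It was the scarcest of the 9 genes for its length, with 76 to 117 counts per mutant library and 75 to 94 per wildtype library. The mutant libraries had from 2.33 through a median of 3.33 to 3.74 CPM and the wildtype libraries had 3.47, 2.81 and 2.84 CPM, which overlap throughout. The log2 fold change was 0.057 (95% interval -0.39 to 0.51, edgeR adjusted p = 0.882), so changes between 0.762 and 1.42 times the wildtype level fall inside the interval. Relative to the endothelial markers Nos3 averaged -4.19 ± 0.22 in mutants (SD, n = 6) and -3.87 ± 0.23 in wildtypes (SD, n = 3), a difference of -0.33 that did not pass (exact permutation p = 0.0952). Without wildtype 1 it was -0.20, and without wildtype 2 it was -0.43. An antisense gene, Gm15587, covers 25.2% of the Nos3 exons and had at most 1 count in a library, and Atg9b, on the opposite strand, covers 7.12% and had at most 20.

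Of 15 other genes of nitric oxide synthesis and cGMP signalling, 3 were called higher and 1 lower (median log2 fold change 0.26). Over all tested genes 9.7% were called higher and 9.47% lower. Ddah1 encodes an enzyme that removes an endogenous inhibitor of nitric oxide synthases, and Ddah2 is its close relative; they moved in opposite directions. Ddah1 rose 1.32-fold to 57.6 ± 2.96 CPM in mutants, against 43.5 ± 3.58 CPM in wildtypes (edgeR adjusted p = 0.0058), and Ddah2 fell 1.27-fold to 109 ± 14.8 CPM, against 139 ± 15.2 CPM (edgeR adjusted p = 0.033). Pde5a, the phosphodiesterase that breaks down cGMP, rose 1.32-fold (edgeR adjusted p = 0.0246), and Prkg1, the kinase that cGMP activates, 1.28-fold (edgeR adjusted p = 0.0337). Without wildtype 1 none was called, and the counts higher and lower were 1 and 0 without wildtype 3, 1 and 1 without mutant 3 and 2 and 0 without mutant 6. With the length trend removed 1 call was left in the list, Ddah1, and with the Gm42418 covariate Pde5a, Ddah2 and Prkg1 lost theirs (edgeR adjusted p = 0.0506, 0.0949 and 0.092). The part of smooth muscle and pericytes, whose markers moved in both directions, was not tested.

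Optn encodes optineurin, a receptor that feeds damaged mitochondria and other cargo into autophagy, and human mutations in it cause normal-pressure glaucoma and motor neuron disease. It lies on chromosome 2 from 5020642 to 5064051, minus strand (ENSMUSG00000026672). The mutant libraries had from 39.0 through a median of 40.4 to 53.4 CPM and the wildtype libraries had 42.9, 42.4 and 39.9 CPM. Mutant 4 alone was above the other libraries, which lay close together. The means were 42.4 ± 5.48 CPM in mutants (SD, n = 6) and 41.7 ± 1.61 CPM in wildtypes (SD, n = 3), with a log2 fold change of 0.023 and a 95% interval from -0.20 to 0.24 (edgeR adjusted p = 0.904). The interval spans 0.872 to 1.18 times the wildtype level.

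Among 17 tested partners of optineurin and autophagy receptors, 2 were called higher and 4 lower (median log2 fold change -0.02). Gabarap and Map1lc3a, which encode ATG8 family proteins of the autophagosome membrane, fell 1.30-fold and 1.36-fold (edgeR adjusted p = 0.0184 and 0.0366). Pink1, the kinase that marks damaged mitochondria, fell 1.31-fold to 272 ± 36.1 CPM in mutants, against 355 ± 49.8 CPM in wildtypes (edgeR adjusted p = 0.0221). Myo6, the motor protein that binds optineurin, rose 1.23-fold to 160 ± 14.2 CPM in mutants, against 130 ± 9.42 CPM in wildtypes (edgeR adjusted p = 0.0233). Without wildtype 1 or wildtype 3 no gene of the list was called. The counts of higher and lower calls were 1 and 4 without wildtype 2 or mutant 2, 1 and 3 without mutant 1 or mutant 4, 1 and 2 without mutant 3 or mutant 6, and 0 and 1 with the length trend removed. All 4 named genes lost their calls with the Gm42418 covariate (edgeR adjusted p from 0.058 to 0.123).

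Angptl7 encodes a secreted angiopoietin-like protein of the trabecular meshwork and cornea, and people who carry disabling variants of it have lower eye pressure. The gene (ENSMUSG00000028989) spans chromosome 4 from 148495183 to 148500460, minus strand. The mutant libraries had from 4.03 through a median of 5.72 to 8.11 CPM, on 142 to 224 counts, and the wildtype libraries had 3.87, 5.47 and 5.07 CPM, on 105 to 146 counts. Mutants 1, 2, 4 and 6 were above all wildtypes, and the groups overlapped. The means were 5.80 ± 1.41 CPM in mutants (SD, n = 6) and 4.81 ± 0.83 CPM in wildtypes (SD, n = 3), with a log2 fold change of 0.27 and a 95% interval of -0.19 to 0.72 (edgeR adjusted p = 0.413). A change of up to 1.65 times the wildtype level lies within it. The gene sits inside the span of Mtor, on the opposite strand and with 0 shared exon bases. Mtor, at 61.4 to 76.4 CPM in mutants and 48.8 to 58.2 CPM in wildtypes, was higher in mutants (log2 0.37, edgeR adjusted p = 0.014), and whether reads from its introns reached Angptl7 was not tested.

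Of the other angiopoietin-like genes 4 of 6 were tested, with 0 called higher and 2 lower. Angptl1 fell 1.45-fold to 35.8 ± 5.31 CPM in mutants, against 51.9 ± 3.56 CPM in wildtypes (edgeR adjusted p = 0.00582), and was called whichever library was left out. Angptl6 fell 2.64-fold to 0.652 ± 0.35 CPM in mutants, against 1.73 ± 0.94 CPM in wildtypes (edgeR adjusted p = 0.046). That call was kept only without mutant 2 or mutant 6, and was lost with the length trend removed (edgeR adjusted p = 0.0791) or the Gm42418 covariate (0.236). Angptl4, which inhibits lipoprotein lipase, had 56.8 ± 15 CPM in mutants and 46.5 ± 1.62 CPM in wildtypes, and Angptl2 had 165 ± 7.80 and 179 ± 15.5 CPM, neither called. With the length trend removed Angptl2 was called lower (log2 -0.21, edgeR adjusted p = 0.0483).

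Myoc encodes myocilin, a secreted protein with an olfactomedin domain that is abundant in adult trabecular meshwork, and mutant forms that misfold in those cells cause open-angle glaucoma in people. It lies on chromosome 1 from 162639155 to 162649693, plus strand (ENSMUSG00000026697). In mutant libraries 1 to 6 it stood at 1.32, 2.52, 3.52, 1.57, 1.07 and 2.57 CPM, and in wildtype libraries 1 to 3 at 1.55, 1.61 and 3.31 CPM, on 38 to 124 and 42 to 92 counts. Both groups held low and high pools, with mutant 3 and wildtype 3 the highest of each. The means were 2.09 ± 0.94 CPM in mutants (SD, n = 6) and 2.16 ± 0.998 CPM in wildtypes (SD, n = 3), with a log2 fold change of -0.042 and a 95% interval of -0.83 to 0.75 (edgeR adjusted p = 0.952). The interval holds changes from 0.562 to 1.68 times the wildtype level, the widest of the 9 genes. Leaving out single libraries moved the estimate between -0.26 and 0.41.

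Myoc varied most between pools of one genotype, with a coefficient of variation of 44.7% in mutants and 46.3% in wildtypes, against 13.2% and 13.7% from counting error. Nos3, at a like depth, varied by 15.6% in mutants and 12.2% in wildtypes, with counting error of 10.1% and 11%. The steadiest was Cav1, at 6.27% in mutants and 2.89% in wildtypes. Myocos, an opposite-strand gene that shares 4.48% of the Myoc exon bases, had at most 1 count in a library.

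Of 12 genes for other olfactomedin-domain proteins and latrophilins, all tested, 1 was called higher and 1 lower (median log2 fold change 0.23). Among all tested genes 9.7% were called higher and 9.47% lower. Olfml3, a secreted member, fell 1.61-fold to 151 ± 26.1 CPM in mutants, against 243 ± 41.0 CPM in wildtypes, with the groups apart (edgeR adjusted p = 0.0035), and it was called whichever library was left out. Olfml2b rose 1.61-fold to 27.4 ± 5.14 CPM in mutants, against 17.1 ± 3.28 CPM in wildtypes (edgeR adjusted p = 0.00876), and lost its call without wildtype 1. Olfml2a, at 74.8 ± 5.48 CPM in mutants and 61.0 ± 10.3 CPM in wildtypes, and the latrophilin gene Adgrl1, at 77.6 ± 12.1 and 62.5 ± 5.97 CPM, did not pass. The counts higher and lower were 3 and 1 without wildtype 2 and 2 and 1 without mutant 1 or mutant 2.

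**Figure D3:**
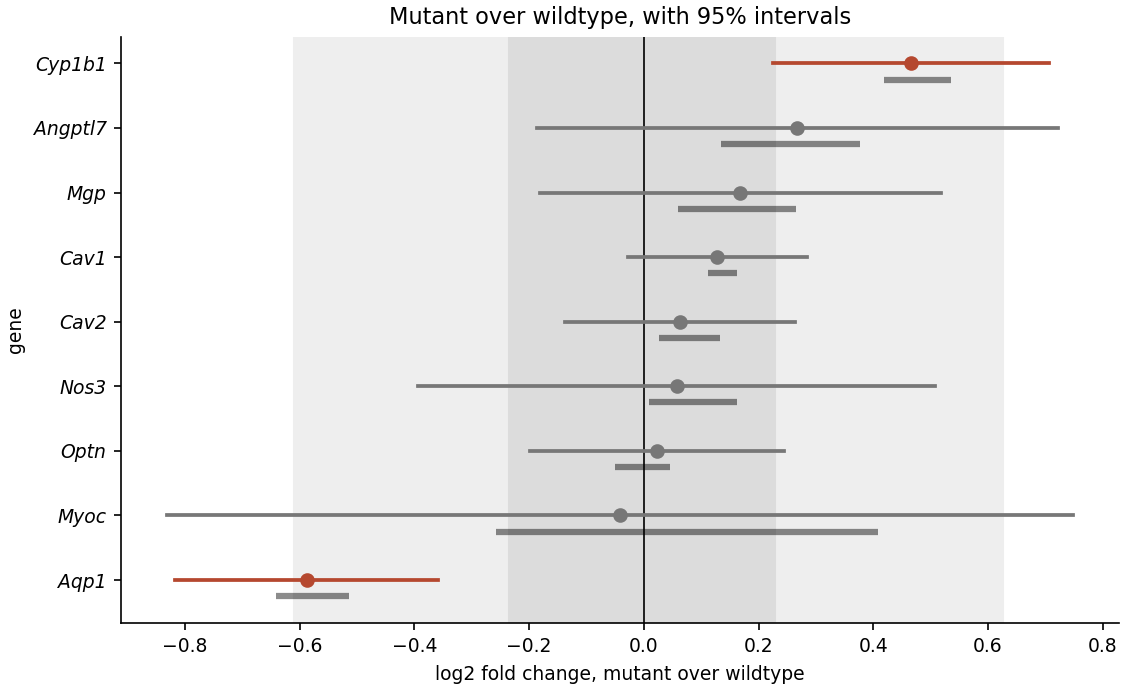
Log2 fold change of each gene, mutant over wildtype (horizontal axis), with its 95% interval, red where called and grey where not, and below it a dark bar for the range of the estimate when each of the 9 libraries is left out. The light and dark grey bands hold the middle 90% and 50% of all tested genes, and the estimate of Aqp1 lies near the lower end of the light band and that of Cyp1b1 between the dark band and the upper end, while those of Myoc, Optn, Nos3, Cav2, Cav1 and Mgp lie inside the dark one.

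The estimates of genes without a call were also read on both sides of the 1% split on Gm42418. The log2 difference above and below it was 0.14 and 0.12 for Cav1, -0.063 and 0.086 for Cav2, -0.062 and -0.28 for Nos3, -0.016 and -0.0064 for Optn, 0.54 and 0.12 for Angptl7 and 0.23 and 0.13 for Myoc. Cav2 differed in sign between the sides, and Nos3, Optn and Myoc had on both sides the sign opposite to their pooled estimate. With 1 wildtype above and 1 mutant below the split, these values carry no test.

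Levels of the genes were set side by side as CPM per kb of exon. In mutants the order from high to low was Mgp (224 ± 49.0), Aqp1 (208 ± 28.3), Cav1 (60.0 ± 3.77), Cyp1b1 (41.4 ± 6.38), Cav2 (23.5 ± 2.40), Optn (11.3 ± 1.46), Angptl7 (2.69 ± 0.65), Myoc (1.01 ± 0.45) and Nos3 (0.766 ± 0.12). In wildtypes Aqp1 (313 ± 28.2) stood above Mgp (199 ± 29.2), and the other genes kept the same order, from Cav1 at 54.9 ± 1.59 to Nos3 at 0.736 ± 0.090 CPM per kb. Neighbours overlapped in their library values for Mgp and Aqp1 in mutants and for Myoc and Nos3 in both groups. With the longest coding transcript as length, Mgp led in both groups. In the ranking of tested genes by CPM per kb, Aqp1 stood at percentile 98.9 in mutants and 99.2 in wildtypes, Cyp1b1 at 93.5 and 89.8, and Myoc at 23.5 and 24.1.

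**Figure D4:**
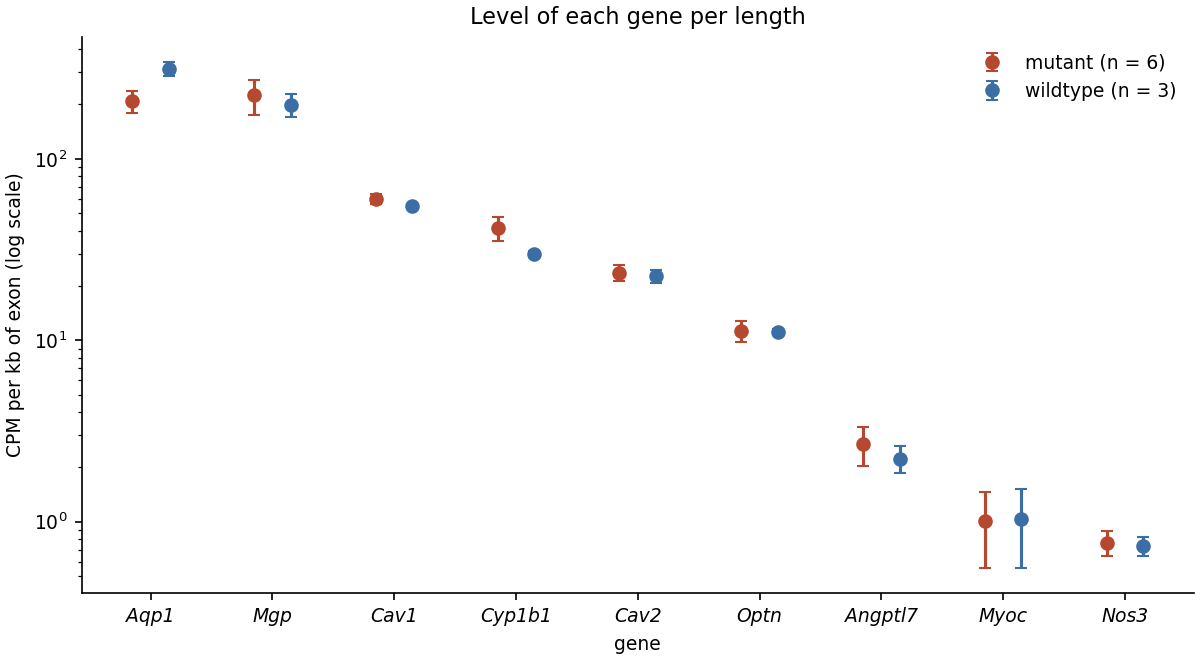
Mean level of each gene in CPM per kb of exon (vertical log axis) with SD over libraries, mutants (red, n = 6) left of wildtypes (blue, n = 3). Levels span from over 200 for Aqp1 and Mgp to about 1 for Myoc and Nos3, and Aqp1 is the gene whose mutant mean lies clearly below its wildtype mean.

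Genes used elsewhere as markers of the meshwork or its inner wall region gave a mixed picture. Of 12 tested, 1 was called higher and 1 lower (median log2 fold change -0.032), beside 9.7% and 9.47% of all tested genes. Timp3, an inhibitor of matrix metalloproteinases, rose 1.40-fold to 369 ± 29.0 CPM in mutants, against 264 ± 18.2 CPM in wildtypes (edgeR adjusted p = 0.00233), and was called whichever library was left out. Dcn, the small proteoglycan decorin that the corneal stroma also makes, fell 1.35-fold (edgeR adjusted p = 0.0198) and lost its call without wildtype 1 or wildtype 2. Chil1 had 2.95 ± 1.89 CPM in mutants and 1.48 ± 0.25 CPM in wildtypes and Tmeff2 had 1.70 ± 0.71 and 2.50 ± 0.45 CPM, neither called. Without mutant 4 the counts were 2 higher and 1 lower. The list for Schlemm's canal and lymphatic vessels had 1 of 7 markers called higher and 1 lower, and its sums of 300 to 328 CPM in mutants lay within the 285 to 332 CPM of wildtypes. Pdpn, at 195 ± 4.10 CPM in mutants and 200 ± 0.92 CPM in wildtypes, made up most of those sums. The higher call was Itga9, at 58.0 ± 5.12 CPM in mutants and 45.8 ± 4.37 CPM in wildtypes (edgeR adjusted p = 0.0233). The lower call was Lyve1, a hyaluronan receptor used as a lymphatic marker, at 6.96 ± 1.99 CPM in mutants and 13.6 ± 7.27 CPM in wildtypes (edgeR adjusted p = 0.0277). Pdpn, Itga9 and Lyve1 are named here after their values were seen. The counts of higher and lower calls were 0 and 0 without wildtype 1 or with the length trend removed, and 3 and 0 without wildtype 2.

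Of 26 other tested genes tied to glaucoma in human genetics, 7 were called higher and 1 lower, with a median log2 fold change of 0.26. Abca1, a cholesterol exporter, rose 2.06-fold to 126 ± 18.1 CPM in mutants, against 61.4 ± 8.46 CPM in wildtypes (edgeR adjusted p = 0.000122). Thbs1, for thrombospondin-1, a matrix protein that activates TGF-beta and is linked to congenital glaucoma, rose 2.23-fold to 269 ± 47.7 CPM in mutants, against 121 ± 7.04 CPM in wildtypes (edgeR adjusted p = 0.000145). Svep1, a matrix protein that binds the receptor TIE1 and acts on Schlemm's canal, rose 2.08-fold to 74.1 ± 12.1 CPM, against 35.6 ± 8.50 CPM (edgeR adjusted p = 0.000876). These 3 were called whichever library was left out. Arhgef12, an activator of RhoA, rose 1.43-fold (edgeR adjusted p = 0.00741) and lost its call without wildtype 1. The lower call, named here after its values were seen, was Tmco1, a calcium channel of the endoplasmic reticulum (log2 -0.28, edgeR adjusted p = 0.047). The counts of higher and lower calls were 3 and 0 without wildtype 1, 4 and 0 without mutant 3 or wildtype 3, 5 and 0 without mutant 5, and 6 and 0 without mutant 4 or mutant 6. They were 10 and 1 without wildtype 2 or mutant 1, 6 and 1 without mutant 2, and 5 and 2 with the length trend removed.

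**Figure D5:**
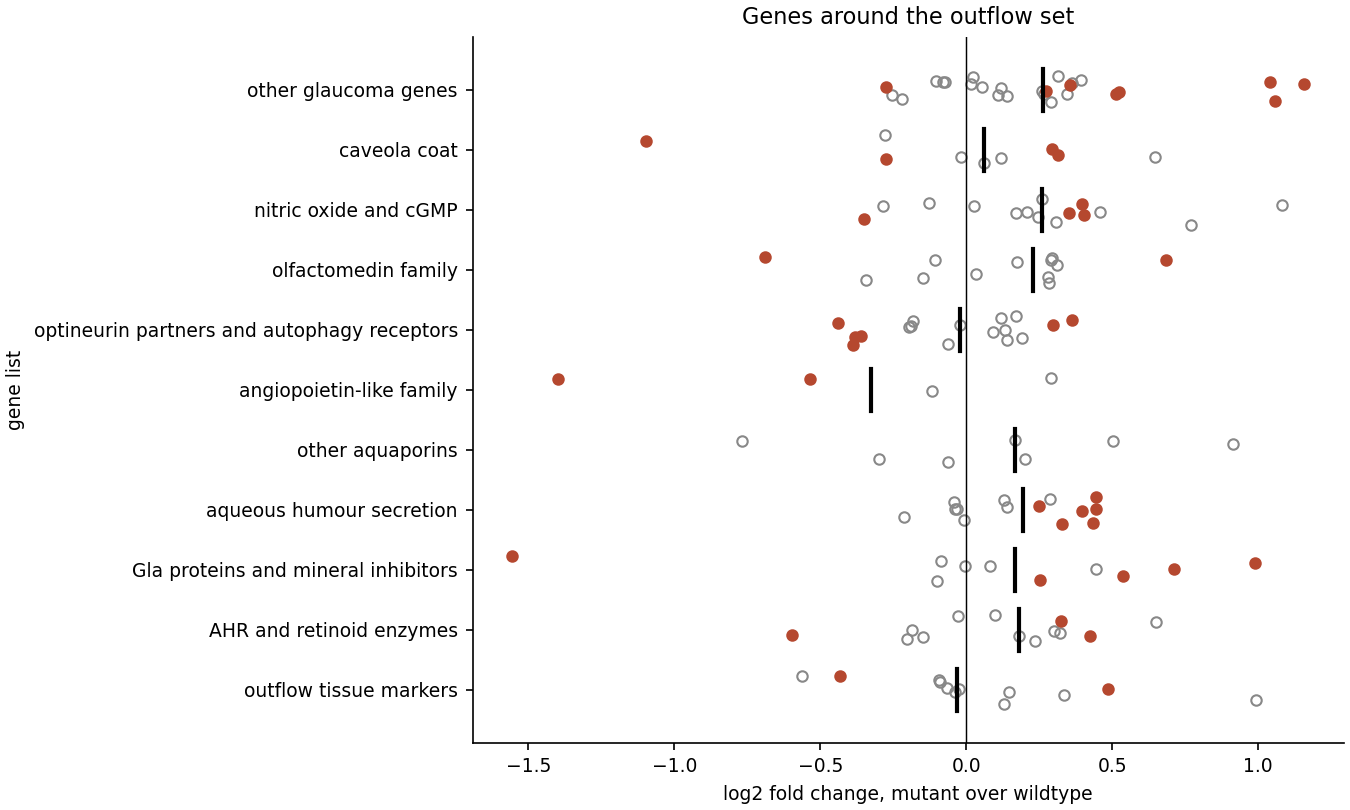
Log2 fold change, mutant over wildtype (horizontal axis), of every tested gene in the 11 lists around the 9 genes, filled red where called and open where not, with a bar at each list's median. Medians lie between -0.33 for the angiopoietin-like family and 0.26 for the other glaucoma genes, and most lists hold calls on both sides of 0.

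For each of the 9 genes the tested genes with the most similar pattern were found by Pearson correlation of log2 CPM over the 9 libraries after subtracting the genotype means. Aqp1 was most like Hcrtr2 (0.931), Socs3 (0.924) and Grk5 (0.922), and Cyp1b1 was most like Fut8 (0.983), Hsf1 (0.973) and Crybb1 (0.972). The nearest gene was Cbx2 for Mgp (0.994), Pax9 for Cav1 (0.919), Als2cr12 for Cav2 (0.969) and Lnpk for Nos3 (0.966). It was Wdr82 for Optn (0.991), Kmt5b for Angptl7 (0.917) and Aasdh for Myoc (0.933). These are the highest values among tested genes other than clone names and pseudogenes, over 9 libraries that share depth and make-up with the gene itself. How high the top values among 15825 tested genes run by chance over so few libraries was not tested. None of the 9 genes appeared among the 3 nearest of another.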

How the data were processed

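Bulk RNA-seq libraries from 9 pooled samples were used, grouped by the genotype in their labels. The authors deposited raw read counts per Ensembl gene, with no normalization. The submitters' processing notes name the tools STAR (2.6.1), HTSeq (0.6.1) and DESeq2 (1.6.3) and the mouse build GRCm38, also called mm10, without saying which step each served. The annotation release and strand use of the counting were not given in the sources used here. Reads of overlapping genes cannot be told apart. GENCODE gene models on GRCm38, which held 34490 of 35275 identifiers, gave symbols, positions and exon lengths, and 0 count columns were left without a sample. Within a group, every pair of libraries differed beyond sampling noise (chi-square of counts).

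The main test was edgeR 4.0.16 in R 4.3.3 (TMM scaling, filterByExpr by group for low counts, quasi-likelihood fit on genotype, robust, Benjamini-Hochberg adjustment over all tested genes). CPM were computed from the deposited counts, and log2 CPM used a prior count of 2. The test was checked on simulated counts. Ratios to marker means were tested by exact two-sided permutation. The 9 genes and all lists were chosen with earlier results of these data known. In each list up to 4 tested genes with the lowest p are named, and all called genes where 3 or fewer were called; 3 genes of most similar pattern were taken per gene, with clone names and pseudogenes skipped. Some genes this rule took are not reported here. The listed genes Cpamd8 and Ahsp were not matched and are not analysed here. Alternatives were DESeq2 1.42.0, limma-voom 3.58.1, other scalings, filters and thresholds, a replicate block, covariates, removal of an exon length trend (mgcv 1.9.3) and leaving out each library.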

Additional observations from a re-analysis of the deposited data

Results flagged for a closer look

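In 9 of the 58 groups of mutant values examined, a library stood farther from its neighbours, relative to the group's range, than Dixon's 95% limit allows, and chance alone marks about 1 in 20 such groups. Optn reached 53.4 CPM in mutant 4, against 39.0 to 41.6 CPM in the other mutants, and Gabarap had 239 CPM in the same library, against 312 to 344 CPM. Cav1 had 181 CPM in mutant 3, against 206 to 216 CPM, and its log2 level relative to the endothelial markers was 1.61 there, against 1.796 to 1.89. Mutant 1 had 54.7 CPM of Adgrl1, against 75.8 to 86.5 CPM, and 6.55 CPM of Chil1, against 0.962 to 2.93 CPM. Mutant 6 had 100.3 CPM of Pros1, against 95.5 to 96.2 CPM, and 3.08 CPM of Tmeff2, against 1.18 to 1.75 CPM. Angptl2 had 150.5 CPM in mutant 5, against 166 to 174 CPM in the other mutants.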

How the results depend on the processing

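The counts of all genes called, called higher and called lower were 3034, 1535 and 1499, with 1 of the 9 genes called higher and 1 lower. Other scalings, filters and DESeq2 gave counts within 1.5 times of these. Limma-voom gave 4694, 2359 and 2335, the 0.01 threshold 1032, 520 and 512, the test against a fold of 1.2 gave 369, 214 and 155, and the Gm42418 share as a covariate 1626, 794 and 832. The endothelial covariate gave 0, 0 and 0 in edgeR (1524 genes at an unadjusted p under 0.05), and the keratocyte covariate, added after seeing the data, 23, 23 and 0 (1284 unadjusted). With the exon length trend removed 915 genes were called higher and 2 of the 9, Cyp1b1 and Mgp. Replicates 1 to 3 of both groups share only a number (correlations of deviations 0.0947, 0.0258 and -0.104): the replicate block gave 1447, 787 and 660 with 0 of the 9 called higher, and the same libraries without it, added afterwards, 1590, 857, 733 and 0. Cyp1b1 lost its call at 0.01 and against a fold of 1.2 (0 called higher), and 0 of the 9 were called in either direction under both marker covariates. Aqp1 kept its call and direction under every other alternative run, those that left out a library included. Leaving out a library gave 538 to 3265 genes, 303 to 1688 higher, 235 to 1577 lower and 0 to 1 of the 9 higher, the lowest of each without wildtype 1. The ratio to endothelial markers ran from -0.28 to -0.21 for Cav1, from -0.41 to -0.22 for Cav2, from -0.43 to -0.20 for Nos3 and from -1.04 to -0.87 for Aqp1 in those tests. With Pecam1, Cdh5 and Tie1 as the markers it was -0.49 for Cav2 and -0.50 for Nos3 (exact permutation adjusted p = 0.0476 for both). By longest coding transcript, levels over all libraries were 415 for Mgp, 73.1 for Cav1, 28.3 for Cav2 and 16.1 CPM per kb for Optn. Of 126 values of the 9 genes under alternatives that kept all libraries or used replicates 1 to 3, 8 lost a call and 1 gained a call. The sign changed in 16 of them, none of a called gene (Myoc, Optn, Nos3 and Angptl7). Of 81 values with a library left out 1 lost a call, Cyp1b1 without wildtype 1, and the sign changed in 6, of Myoc and Optn. Of 395 values of the named list genes 43 lost a call, 8 gained a call and 0 changed sign. Where the cause of a shift is not set by the alternative itself, the cause was not tested. With 38 to 124 counts per library, Myoc and Nos3 had the largest counting error of the 9 genes. Myoc varied between pools well beyond that error, by 44.7% in mutants and 46.3% in wildtypes against 13.2% and 13.7%. Nos3 varied by 15.6% and 12.2% against 10.1% and 11%.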
